A study of Mus musculus with 18 samples.

Results

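The motile cilium and axoneme genes described here were the rows of a mouse lung gene table whose symbol is Foxj1 or begins with Cfap, Dnah, Dnai, Dnaaf, Rsph, Tekt or Drc followed by a digit. That rule found 58 of the 13384 genes listed: 26 Cfap, 12 Dnah, 4 Dnaaf, 7 Rsph, 5 Tekt and 3 Drc genes and Foxj1. It found 0 genes named Dnai, because the table names the dynein intermediate chains by older symbols such as Dnaic1 and Dnaic2. The values are FPKM, fragments per kilobase of transcript, scaled to the library, in 9 messenger RNA libraries of lung tissue, 3 in each of 3 groups. BMSC-treated lungs came from mice of the COPD (chronic obstructive pulmonary disease) model that were given BMSCs (4 × 10 to the power of 6 cells) in 100 µl of PBS through the tail vein. COPD model lungs came from mice exposed to cigarette smoke and injected intraperitoneally with cigarette smoke extract. Control lungs had neither, and both groups without cells were given PBS instead. The labels give no strain, sex or age, no time between injection and collection, no source of the BMSCs and no number of animals per library, so p-values here speak of the spread among these 9 samples alone. The libraries are numbered 1 to 3 within each group as in the labels.

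A motile cilium beats by sliding of doublet microtubules, which form the axoneme. Outer and inner dynein arms, built on heavy chains, drive the sliding. The nexin-dynein regulatory complex links neighbouring doublets, and radial spokes reach from them to the central pair. Tektins are filament proteins of the doublet wall, and cytoplasmic assembly factors fold and load the dyneins before they enter the cilium. In the lung these structures sit on the multiciliated cells of the airways, which sweep mucus upward, and not in the alveoli. Foxj1 is the transcription factor that switches on most of their genes. RFX factors, which act with Foxj1 on cilium genes, bind an inverted repeat called the X-box.

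Promoter windows, 250 bases before to 50 after an annotated transcript start, were taken from RefSeq on GRCm38.p6, which is mm10, for 46 of the 58 members matched by symbol. The other 12 were Cfap157, Cfap53, Cfap54, Cfap65, Cfap73, Cfap97, Dnaaf1, Dnah3, Foxj1, Rsph1, Rsph10b and Rsph4a. A single arm of the X-box, GTTGCC on either strand, was in the windows of 18 of 46 members (39.1%), against 14.1% of the 27025 genes of that table. A strict inverted repeat, GTTNCC, 0 to 3 bases and GGNAAC, was in 0 of 46 members and in 0.936% of all genes. The forkhead core GTAAACA was in 3 of 46 members (6.52%) and in 4.05% of all genes. A looser inverted repeat, GTTGC, 2 to 4 bases and GCAAC, reads the same on both strands and can overlap that arm. It was set after reading the windows of Tekt2 and Cfap44, so its count describes these members and supports nothing. It was in 8 of 46 members (17.4%), against 0.459% of all genes. They were Cfap44, Dnah6, Dnah7a, Dnah7b, Dnah7c, Rsph3b, Tekt2 and Tekt4, and the Dnah7 genes are near copies. The 80 bases before the start are shown for 6 of them, with the repeat in capitals, to show where it lies in windows of different members. They read 5′ to 3′ on the strand of each gene. They lie at chr17:25471510-25471589 on the plus strand for Tekt4, chr4:126325647-126325726 on the minus strand for Tekt2 and chr16:44394719-44394798 on the plus strand for Cfap44. Those of the heavy chains lie at chr6:73221632-73221711 on the minus strand for Dnah6, chr1:46425438-46425517 on the plus strand for Dnah7c and chr1:53706785-53706864 on the minus strand for Dnah7a.
Tekt4: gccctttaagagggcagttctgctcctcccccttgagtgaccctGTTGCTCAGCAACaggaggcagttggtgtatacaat
Tekt2: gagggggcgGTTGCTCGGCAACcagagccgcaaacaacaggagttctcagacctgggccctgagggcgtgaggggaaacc
Cfap44: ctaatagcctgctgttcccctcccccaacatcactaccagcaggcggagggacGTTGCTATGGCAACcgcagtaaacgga
Dnah6: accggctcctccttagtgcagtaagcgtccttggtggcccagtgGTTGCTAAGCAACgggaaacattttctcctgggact
Dnah7c: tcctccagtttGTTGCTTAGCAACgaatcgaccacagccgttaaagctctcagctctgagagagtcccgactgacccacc
Dnah7a: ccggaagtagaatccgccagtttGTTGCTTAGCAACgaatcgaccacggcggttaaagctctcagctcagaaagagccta
The repeat began 36 bases before the start in Tekt4 and Dnah6, 71 in Tekt2, 27 in Cfap44, 69 in Dnah7c and 57 in Dnah7a. Tekt2 has another annotated start, and the same repeat began 29 bases before that one. A match of letters is a description and does not show that a factor binds there.

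A pair of libraries stood apart from the other 7, and the comparisons are given with and without them. In BMSC-treated 1 and control 1 the mitochondrially encoded genes held 92.2% and 89.3% of all FPKM, against 55.6% to 70.8% in the other BMSC-treated, 23.9% to 30.0% in the COPD model and 46.9% to 65.1% in the other control libraries. Genes listed at 0 numbered 1193 and 1038 there, and between 107 and 201 in the rest. FPKM is scaled to the whole library, so these shares bear on the level of every other gene, and how far was not tested. The number of reads behind each value is unknown. The 10 alveolar type 2 markers that identify lung tissue were above 0 in every library.

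Cilium genes were measured in all 3 groups, and were far lower in BMSC-treated 1 and control 1 than in the other 7 libraries. Summed FPKM of the 58 members was 57.9, 484.6 and 838.1 in BMSC-treated 1 to 3, 887.5, 1172 and 810.5 in COPD model 1 to 3, and 34.9, 602.1 and 1075 in control 1 to 3. The group means were 460.2 ± 390.6, 956.6 ± 190.2 and 570.8 ± 521.0 in that order (SD, n = 3 each). FPKM rescaled to an equal sum outside the mitochondrially encoded genes and Scgb1a1 is described below. On that scale the sums were 195.2 in BMSC-treated 1, 82.8 in control 1 and 555.2 to 910.9 in the other 7. Of the 58 members, 16, 53 and 57 reached 1 FPKM in the BMSC-treated libraries, 56, 58 and 57 in the COPD model and 6, 54 and 58 in control. Fewer multiciliated cells and less RNA per cell cannot be told apart in whole tissue.

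**Figure D1:**
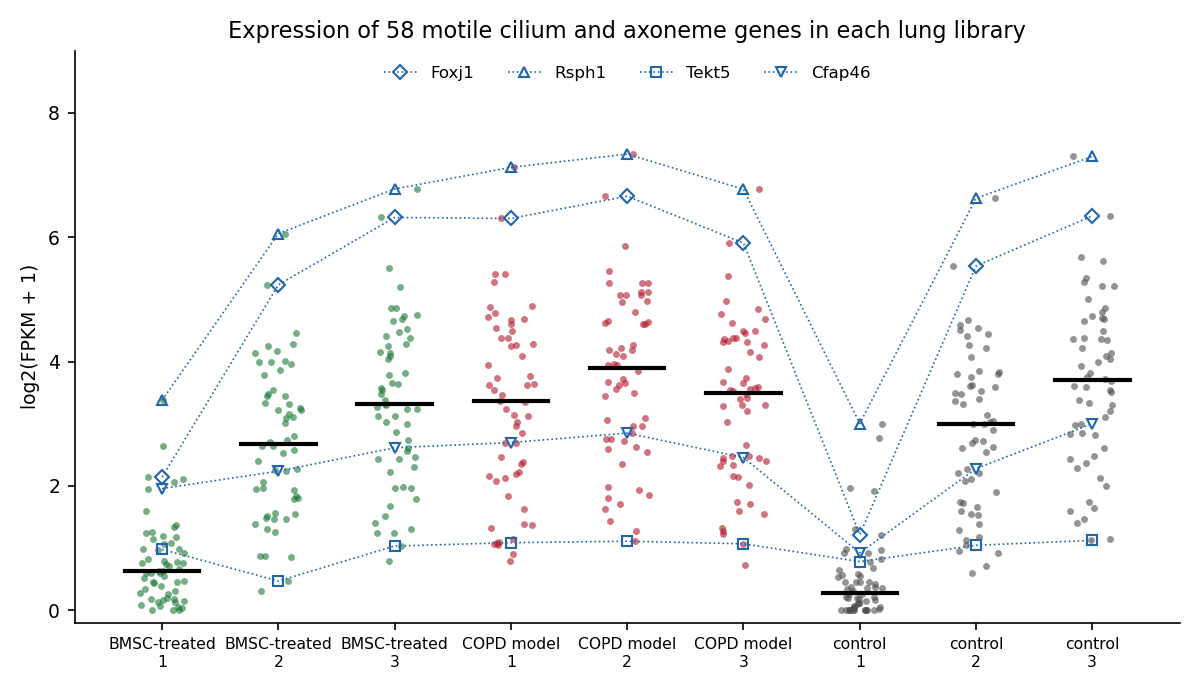
Each point is 1 of the 58 cilium genes in 1 library, on a log2(FPKM + 1) axis, and black bars are the median of the 58. Blue symbols joined by dotted lines mark Foxj1, Rsph1, Tekt5 and Cfap46 again. BMSC-treated 1 and control 1 sit lowest, while Tekt5 keeps nearly the same height in them.

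Most members stood below 10% of their level in the other libraries of their own group, and most other genes did not. For this and the tests, 57 members and 11765 genes in all reached 1 FPKM in at least 3 of the 9 libraries, and Tekt3 did not. In control 1, 50 of 57 members (87.7%) were under 10% of the mean of control 2 and 3, and so were 14.3% of all genes tested. In BMSC-treated 1, 44 of 57 (77.2%) were under 10% of the mean of BMSC-treated 2 and 3, and so were 18.8% of all genes. The same 41 members met this in both libraries. The median difference on log2(FPKM + 1) was -2.34 over members and -1.36 over all genes in BMSC-treated 1, and -2.91 and -1.02 in control 1. No member was at 0 in the other 7 libraries. Listed at 0 in control 1 were 12 members, namely Cfap57, Cfap73, Cfap77, Cfap99, Cfap157, Dnah1, Dnah7c, Drc1, Drc3, Rsph4a, Rsph14 and Tekt2. In BMSC-treated 1 they were Cfap73, Cfap99 and Tekt3. Outside the pair the levels also differed between libraries of a group: all 57 members were higher in control 3 than in control 2, and all 57 were higher in BMSC-treated 3 than in BMSC-treated 2. Of the COPD model libraries, number 2 was highest in 51 of 57.

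Members differed in how much of their level was left in BMSC-treated 1 and control 1. Tekt5 (chromosome 16, 10357952 to 10395455, mm10), a tektin best known from sperm, had 0.972, 0.387 and 1.05 FPKM in BMSC-treated, 1.13, 1.16 and 1.10 in COPD model and 0.722, 1.06 and 1.18 in control libraries. Its value in BMSC-treated 1 was 136% of the mean of BMSC-treated 2 and 3, and that in control 1 was 64.3% of the mean of control 2 and 3. Cfap46, whose Chlamydomonas counterpart belongs to the central apparatus (chromosome 7, 139600914 to 139684787), had 2.89, 3.72 and 5.13 FPKM in BMSC-treated, 5.49, 6.21 and 4.49 in COPD model and 0.899, 3.86 and 7.02 in control libraries, so that BMSC-treated 1 kept 65.3% and control 1 kept 16.5%. Cfap97 kept 37.8% in BMSC-treated 1 and 29.0% in control 1, and Cfap36, chosen after its values were seen, kept 16.4% and 25.0%. At the other end Cfap57 had 0.0968 FPKM in BMSC-treated 1, which is 1.96% of the mean of the other 2, and was listed at 0 in control 1. Cfap73 and Cfap99 were listed at 0 in both. Tekt5, Cfap46 and Cfap36 overlap other RefSeq genes, as do Cfap57, Cfap73 and Cfap99, and the part of such overlap in these values was not tested.

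Foxj1 (chromosome 11, 116330704 to 116335499) was the second most abundant member, with a mean of 53.7 FPKM over the 9 libraries. It had 3.42, 36.7 and 78.8 FPKM in BMSC-treated, 77.9, 100.2 and 59.0 in COPD model and 1.33, 45.5 and 80.2 in control libraries. Without the pair the BMSC-treated and control values overlapped, and BMSC-treated 3 lay inside the COPD model range. Above it stood Rsph1, a radial spoke head protein (chromosome 17, 31255019 to 31277296), with a mean of 94.8 FPKM. Rsph1 had 9.41, 65.7 and 108.7 FPKM in BMSC-treated, 138.6, 160.8 and 108.3 in COPD model and 7.02, 97.9 and 156.5 in control libraries. The lowest members were Tekt3 with a mean of 0.700 FPKM, Tekt5 with 0.974 and the inner arm heavy chain Dnah7b with 0.984.

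Each dynein heavy chain and each assembly factor had a lower mean over the 9 libraries than Foxj1. The 3 outer arm heavy chains Dnah5, Dnah9 and Dnah11 summed to 1.22, 11.4 and 17.3 FPKM in BMSC-treated, 18.2, 25.9 and 18.6 in COPD model and 0.274, 11.6 and 23.5 in control libraries. Dnah5 made up most of this, at 6.31 ± 5.14 FPKM in BMSC-treated, 12.8 ± 2.75 in COPD model and 7.24 ± 7.08 in control lungs (SD, n = 3 each). The 9 inner arm heavy chains summed to 1.82, 26.5 and 37.9 FPKM in BMSC-treated, 29.6, 47.8 and 34.9 in COPD model and 1.36, 23.2 and 48.6 in control libraries. Dnah6 and Dnah12 were the highest of them, with means of 6.96 and 5.77 FPKM over the 9 libraries. Dnah7a, Dnah7b and Dnah7c are near-identical copies on chromosome 1, and how their reads were shared out is uncertain. The 4 assembly factors summed to 2.75, 14.9 and 31.2 FPKM in BMSC-treated, 23.3, 45.9 and 32.2 in COPD model and 1.82, 22.0 and 37.3 in control libraries. Dnaaf3 and Dnaaf1 were the highest of them at means of 7.03 and 6.71 FPKM. Dnaaf5, named after its values were seen, had 1.61 FPKM in COPD model 1 but 11.6 and 8.76 in COPD model 2 and 3. Cfap97 was likewise at 0.737 in COPD model 1 and at 4.09 and 4.58 in the other 2.

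Within the rule the nexin-dynein regulatory complex was represented by 3 genes, of which Drc1 and Drc3 were listed at 0 in control 1. Subunits listed under older symbols, such as Ccdc65 and Gas8, fell outside the rule and were not counted in it. Drc1, Drc3 and Drc7 summed to 1.90, 28.5 and 51.3 FPKM in BMSC-treated, 64.7, 85.8 and 58.4 in COPD model and 0.146, 31.9 and 64.1 in control libraries. Drc7 (chromosome 8, 95055103 to 95078141) had 0.633, 10.6 and 16.8 FPKM in BMSC-treated, 21.6, 32.5 and 19.8 in COPD model and 0.146, 11.4 and 19.5 in control libraries. As deposited, its COPD model values lay above all values of both other groups, with the closest at 19.8 in COPD model 3 and 19.5 in control 3. On the rescaled FPKM described below, COPD model and control values of Drc7 overlapped. Drc3 (chromosome 11, 60352881 to 60394342) had 0.692, 9.96 and 18.5 FPKM in BMSC-treated, 24.8, 30.0 and 19.7 in COPD model and 0, 9.51 and 24.8 in control libraries. Drc3 overlaps Tom1l2, another listed gene, and whether reads were assigned by strand is not given in the sources used here. In all, 29 members overlap a RefSeq gene and 10 overlap a gene of the table.

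Radial spoke genes, led by Rsph1, summed to 17.5, 135.6 and 239.6 FPKM in BMSC-treated, 268.2, 322.4 and 227.4 in COPD model and 14.7, 188.1 and 318.4 in control libraries. Rsph9, a spoke head protein, had a mean of 24.9 FPKM over the 9 libraries, and Rsph14 the lowest of the 7 at 3.25. Rsph3a and Rsph3b are near copies whose reads may have been divided arbitrarily, with means of 21.1 and 22.4 FPKM. The 5 tektins summed to 4.29, 40.2 and 67.9 FPKM in BMSC-treated, 90.5, 104.1 and 67.7 in COPD model and 2.23, 55.1 and 107.2 in control libraries, nearly all from Tekt1, Tekt2 and Tekt4. The 26 Cfap genes, a mixed set named only for their association with cilia and flagella, summed to 25.0, 190.8 and 314.0 FPKM in BMSC-treated, 315.1, 439.6 and 312.2 in COPD model and 13.0, 224.6 and 396.1 in control libraries. Cfap126, which acts in positioning basal bodies and in polarity of cilia, was the highest of these, at 5.26, 20.9 and 44.4 FPKM in BMSC-treated, 41.4, 57.4 and 40.4 in COPD model and 0.992, 24.5 and 50.6 in control libraries.

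**Figure D2:**
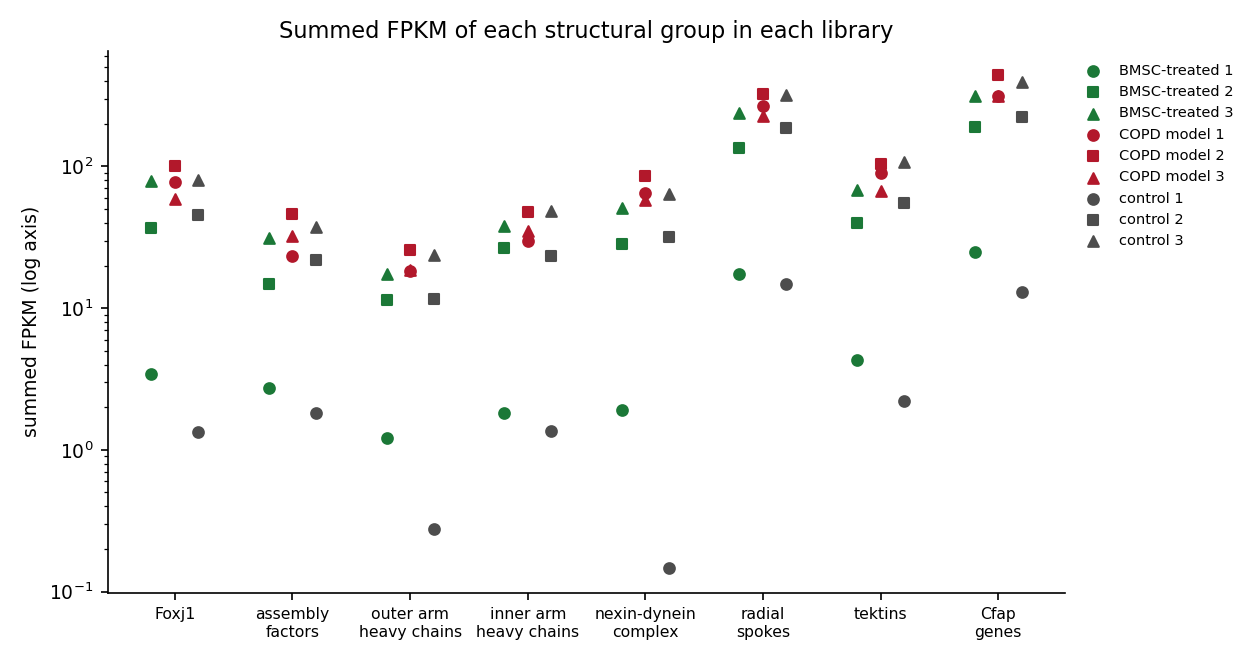
Summed FPKM of each structural group on a log axis, with 1 symbol per library (circle, square and triangle for libraries 1, 2 and 3). BMSC-treated 1 and control 1 lie far below the other 7 libraries in every group, and the nexin-dynein complex of control 1 is lowest at 0.146.

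The make-up of the cilium RNA was alike in the 7 other libraries, a measure that does not depend on the scale of a library. Of the summed member FPKM in those 7, Foxj1 held 7.28% to 9.41%, assembly factors 2.63% to 3.98%, outer arm chains 1.93% to 2.35% and inner arm chains 3.34% to 5.47%. The nexin-dynein complex held 5.31% to 7.32%, radial spokes 27.5% to 31.2%, tektins 8.10% to 10.2% and Cfap genes 35.5% to 39.4%. BMSC-treated 1 lay outside these ranges with 5.90% for Foxj1, 4.74% for assembly factors, 3.15% for inner arm chains, 3.29% for the nexin-dynein complex, 7.41% for tektins and 43.2% for Cfap genes. Control 1 lay outside them with 3.80% for Foxj1, 5.21% for assembly factors, 0.786% for outer arm chains, 0.419% for the nexin-dynein complex, 42.1% for radial spokes and 6.38% for tektins. The nexin-dynein share was 3.29%, 5.88% and 6.12% in BMSC-treated, 7.28%, 7.32% and 7.21% in COPD model and 0.419%, 5.31% and 5.96% in control libraries. COPD model shares of Drc1, Drc3 and Drc7 together, the only subunits counted here, thus lay above both other groups, with or without the pair. Tektin shares of 7.41%, 8.29% and 8.10% in BMSC-treated libraries also lay below those of 10.2%, 8.89% and 8.35% in COPD model libraries. Control shares, at 6.38%, 9.15% and 9.97%, overlapped both, but overlapped the BMSC-treated shares only through control 1. Without the pair both control shares lay above both BMSC-treated shares. The nexin-dynein complex and the tektins were 2 of 8 groups looked at and were picked after the values were seen, so no test is given.

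The first comparison asked whether smoke and smoke extract altered these genes. No member passed in COPD model against control (adjusted p under 0.05, limma with Benjamini-Hochberg over all genes tested), and 0.0765% of all genes did. The smallest adjusted p of a member was 0.514 by limma. All 57 fitted log2 changes of FPKM + 1 were above 0, with a median of 1.14, but so were 94.4% of all genes, whose median was 0.66. Without BMSC-treated 1 and control 1 the median was 0.19 over members and 0.30 over all genes, 46 of 57 members and 85.0% of all genes were above 0, and 0 members passed, as did 0.0255% of all genes. At an unadjusted p under 0.05, 12 members were higher in COPD model lungs, against 6.36% of all genes. Without the pair 0 members were, against 5.95% of all genes.

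The 3 largest fitted values in that comparison belonged to Drc3, Foxj1 and Drc7, and the 3 smallest to a tektin, a dynein heavy chain and a Cfap gene. The fitted log2 change was 1.98 ± 0.79 for Drc3, 1.92 ± 0.78 for Drc7 and 1.92 ± 0.87 for Foxj1 (SE). Without the pair these became 0.63 ± 0.40, 0.65 ± 0.36 and 0.35 ± 0.39. The 3 nexin-dynein genes were all among the 12 at an unadjusted p under 0.05, with Foxj1, 2 of 4 tektins and 6 of 26 Cfap genes, and 0 of the 7 spoke genes, 12 heavy chains and 4 assembly factors. At the low end were Tekt5 at 0.10 ± 0.39, Dnah2 at 0.12 ± 0.47 and Cfap97 at 0.22 ± 0.56. Dnah2, an inner arm heavy chain, had 0.0259, 1.62 and 2.20 FPKM in BMSC-treated, 1.15, 2.63 and 1.41 in COPD model and 0.280, 1.61 and 3.35 in control libraries, so its groups overlapped throughout. Only Drc7 had COPD model values above every control value, 1 of 57 members against 23.7% of all genes. With FPKM rescaled as described below, 0 members did, with or without the pair. Numbers were not taken to pair these groups, so differences by number are a description only. COPD model 1 minus control 1 had a member median of 2.89, number 2 one of 0.94 and number 3 one of -0.32. Of the 57 members, 50 were lower in COPD model 3 than in control 3. The medians over all genes were 1.15, 0.53 and 0.26, and 74.4% of all genes were higher in COPD model 3 than in control 3.

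The second comparison asked what BMSCs altered in the model. No member passed in BMSC-treated against COPD model, and 0.127% of all genes did. The smallest adjusted p of a member was 0.375 by limma. The median fitted log2 change was -1.22 over members, all of them below 0, and -0.75 over all genes, 94.1% of them below 0. Without the pair it was -0.41 over members and -0.31 over all genes, with 54 of 57 members and 79.98% of all genes below 0, and 0 members and 0.085% of all genes passing. At an unadjusted p under 0.05, 17 members were lower against 10.8% of all genes, and 6 were without the pair, against 10.3%. BMSC-treated values lay below every COPD model value in 19 of 57 members, that is 33.3%, against 31% of all genes.

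The members with the most negative values were a Cfap gene, a tektin and a nexin-dynein gene. Cfap53, an axonemal protein needed by motile cilia (chromosome 18), had 0.723, 5.96 and 13.1 FPKM in BMSC-treated and 16.1, 23.8 and 19.8 in COPD model libraries. These groups did not overlap, and the fitted log2 change was -1.90 ± 0.76 (SE), or -1.06 ± 0.38 without the pair (adjusted p = 0.294, limma). Tekt4 had 0.767, 9.94 and 22.1 FPKM in BMSC-treated and 28.6, 33.7 and 21.5 in COPD model libraries, and here BMSC-treated 3 lay within the COPD model range. Its log2 change was -1.90 ± 0.81, and that of Drc7 was -1.85 ± 0.78. Foxj1 had a log2 change of -1.72 ± 0.87 with all libraries and -0.51 ± 0.39 without the pair. The 3 nexin-dynein genes, 3 of 4 tektins, 2 of 7 spoke genes, 1 of 4 assembly factors, 7 of 26 Cfap genes and Foxj1 made up the 17, and 0 of 12 heavy chains did. Nearest to 0 were Tekt5 at -0.26 ± 0.39, Dnah2 at -0.38 ± 0.47 and Cfap46 at -0.40 ± 0.64. Same-numbered libraries, again not taken as paired, differed by a member median of -2.59 for number 1, -1.03 for number 2 and -0.03 for number 3. Of the members, 25 were higher and 32 lower in BMSC-treated 3 than in COPD model 3. The medians over all genes were -1.46, -0.53 and -0.29, and 26.3% of all genes were higher in BMSC-treated 3 than in COPD model 3.

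The third comparison set BMSC-treated lungs against control lungs. No member passed, as none of all 11765 genes did (0%), and 0 members had an unadjusted p under 0.05, against 0.28% of all genes that were higher and 0.127% that were lower. The median fitted log2 change was -0.06 over members and -0.10 over all genes. The range was -0.47 ± 0.70 for Cfap45 to 0.42 ± 0.83 for Cfap126. Cfap45, a protein inside the doublet microtubules, had 0.375, 3.85 and 7.12 FPKM in BMSC-treated and 0.343, 6.98 and 12.4 in control libraries. Foxj1 was at 0.20 ± 0.87. These groups each hold 1 of the low libraries, and without the pair the median was -0.21 over members and -0.02 over all genes, with 54 of 57 members and 52.4% of all genes below 0, and 0 members and 0.051% of all genes passing. The 2 BMSC-treated values then lay below both control values in Cfap20, Cfap77, Cfap161 and Tekt5, 4 of 57 members (7.02%) against 8.61% of all genes. By number, BMSC-treated minus control had a member median of 0.26, -0.16 and -0.30 in libraries 1 to 3. In number 3, 56 of 57 members were lower in the BMSC-treated library, beside a median of -0.02 over all genes. In number 1, 45 were higher and 10 lower, whereas 23.9% of all genes were higher, with a median of -0.26.

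**Figure D3:**
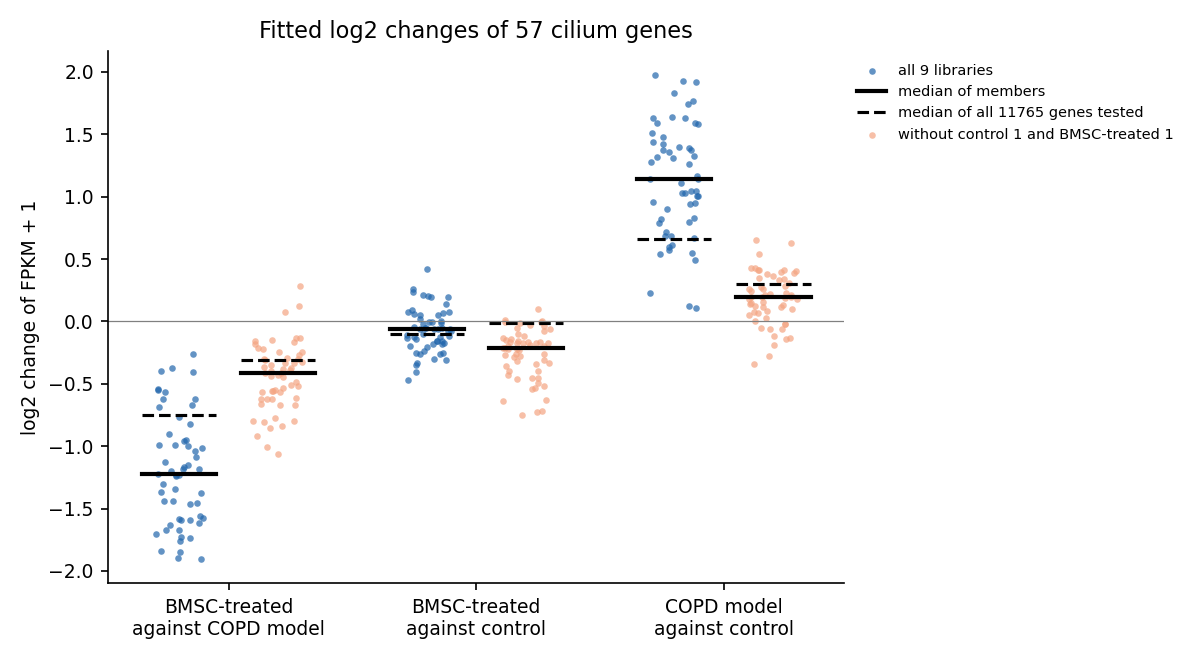
Fitted log2 changes of FPKM + 1 for the 57 members tested, 1 point each, in the 3 comparisons. Blue points use all 9 libraries and orange points leave out control 1 and BMSC-treated 1, with black bars at the member median and dashed bars at the median of the 11765 genes. With the pair left out, the member median minus that of all genes is -0.10, -0.20 and -0.11 from left to right.

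Values were also set on a scale without the dominant transcripts. Scgb1a1, the main secretory product of club cells, and the mitochondrial genes held most of the FPKM. Of the FPKM outside them, the 58 members held 0.131%, 0.374% and 0.446% in BMSC-treated, 0.456%, 0.613% and 0.390% in COPD model and 0.0557%, 0.427% and 0.604% in control libraries. On this scale COPD model and control overlapped through control 2 and 3, and BMSC-treated 3 lay inside the COPD model range. With FPKM rescaled to an equal sum outside these genes, the median fitted log2 change was 0.71 in the first comparison, -0.59 in the second and 0.07 in the last, beside 0.14, -0.16 and -0.01 over all genes. Without the pair as well they were -0.09, -0.13 and -0.20, so the direction of the first comparison turned, and 0 members passed in any of these fits. On that scale without the pair, both BMSC-treated values lay below both control values in 16 of 57 members, against 17.5% of all genes. BMSC-treated values lay below every COPD model value in 7 of 57 members after rescaling, with or without the pair, against 19 before it. The share of all genes was not taken for that rescaled count.

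The summed FPKM of each list of cilium genes outside the rule was also lowest in the pair, though single genes were not, such as the tubulin Tuba4a, chosen after its values were seen, at 2.51 FPKM in BMSC-treated 1, 1.14 in COPD model 1 and 3.30 in control 1. Dnaic1, an outer arm intermediate chain, had 0.279, 7.07 and 11.5 FPKM in BMSC-treated, 11.8, 13.7 and 11.9 in COPD model and 0.689, 7.73 and 17.2 in control libraries. Wdr63, an inner arm intermediate chain, had 0, 7.57 and 14.5 FPKM in BMSC-treated, 14.6, 18.4 and 15.9 in COPD model and 0, 9.22 and 20.3 in control libraries. These genes were chosen after their values were seen. Of 45 other axoneme genes tested, 0 passed in any comparison, with or without the pair, and their median log2 change was 1.10 in the first comparison and -1.28 in the second. Dynlrb2, a dynein light chain and the highest of them, had 26.4, 225.9 and 405.9 FPKM in BMSC-treated, 478.2, 496.5 and 319.7 in COPD model and 6.51, 236.5 and 457.0 in control libraries. Of 36 genes of intraflagellar transport and the BBSome, the carriers that build and service cilia of any kind, 0 passed, with medians of 0.89 and -1.02 in the same comparisons. Ift20, which also acts at the Golgi, had 10.8, 42.3 and 54.1 FPKM in BMSC-treated, 75.3, 66.3 and 61.4 in COPD model and 15.4, 42.6 and 54.7 in control libraries, a shallower drop in the low pair than that of the axoneme genes. Of 12 tubulins 0 passed, with medians of 0.40 and -0.54.

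Regulators that act before or beside Foxj1 each had a lower mean than Foxj1 in every group. Of 14 tested regulators of multiciliated cells, 0 passed, with median log2 changes of 0.76 in the first comparison and -0.82 in the second. Gmnc, which starts the multiciliated program, had 0, 0.366 and 0.958 FPKM in BMSC-treated, 1.75, 1.53 and 1.42 in COPD model and 0, 0.822 and 3.12 in control libraries. Rfx2, an X-box factor, had 0.269, 5.90 and 8.76 FPKM in BMSC-treated, 6.91, 9.70 and 9.26 in COPD model and 0.194, 0.971 and 10.8 in control libraries. Control 2 was thus low for Rfx2 while it held 45.5 FPKM of Foxj1. Gmnc and Rfx2 were chosen after their values were seen. The most abundant of the list were E2f4 and E2f5, which act at centriole amplification and in the cell cycle, with 1.67 and 1.81 FPKM in BMSC-treated 1 and 3.93 and 2.03 in control 1.

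Some marker lists of other lung cells were also lowest in the pair and others were not. The 20 ciliated cell markers that are not members, all of them listed, summed to 116.1 to 1810.2 FPKM in BMSC-treated, 1583 to 2229 in COPD model and 74.7 to 2085 in control libraries, with the low end in the pair each time. The 12 club cell markers, all listed, summed to 10413 to 42692 FPKM in BMSC-treated, 170036 to 265781 in COPD model and 7477 to 111974 in control libraries. Club cells share the airway lining with multiciliated cells. Alveolar type 2 markers summed to 1115, 3145 and 3272 FPKM in BMSC-treated, 3549.9, 3842 and 6174 in COPD model and 1303, 4187 and 3324 in control libraries. In control 1 the club sum was 7477 against 71814 in control 2, and the type 2 sum was 1303 against 4187. The 6 leukocyte markers ran otherwise, at 149.8 to 281.3 FPKM in BMSC-treated, 109.7 to 233.9 in COPD model and 136.6 to 771.5 in control libraries, with 765.5 in control 1. The 6 endothelial markers summed to 20.9, 160.4 and 81.0 FPKM in BMSC-treated, 85.6, 137.9 and 248.8 in COPD model and 49.4, 109.6 and 85.4 in control libraries. The 5 neuroendocrine markers summed to 1.58, 5.22 and 11.2 FPKM in BMSC-treated, 13.4, 15.7 and 8.64 in COPD model and 1.63, 33.4 and 9.82 in control libraries, and these lists were lowest in the pair as well. The 3 basal cell markers summed to 0.513 to 26.5 FPKM in BMSC-treated, 0.630 to 1.10 in COPD model and 0.570 to 2.02 in control libraries. The part of airway content, mitochondrial share or RNA quality in the member values was not tested.

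**Figure D4:**
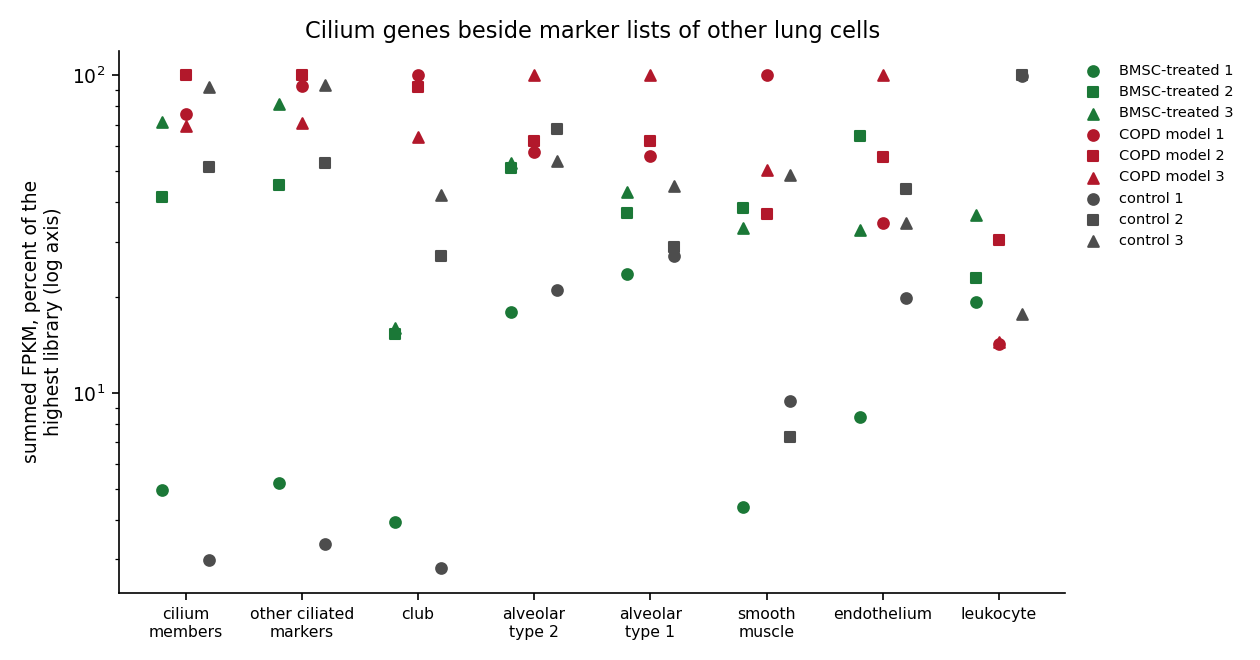
Summed FPKM of the members and of marker lists of lung cell types, as a percentage of the highest library, on a log axis, with 1 symbol per library. The ciliated, club and smooth muscle lists are below 10% in BMSC-treated 1 and control 1, smooth muscle also in control 2 and endothelium in BMSC-treated 1, while the alveolar type 1, alveolar type 2 and leukocyte lists stay above 10% in all libraries.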

How the data were processed

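The 9 messenger RNA libraries of mouse lung were used, and 9 libraries of tRNA-derived small RNA of the same series were not used here. Per the labels, total RNA was extracted with Trizol, 1.5 µg went into each sample, and stranded libraries were made after selection with oligo dT. The submitters' processing notes name FastQC, cutadapt, StringTie, Bowtie and mm10, without versions or roles. The deposited table gives FPKM, per the file headers, so the authors had divided by transcript length and by library size. They are not counts, so depth is unknown and no counting interval can be given. Groups and numbers came from the sample titles, and 0 value columns were left unassigned.

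Genes with at least 1 FPKM in at least 3 of 9 libraries were kept (11765 of 13384). limma 3.58.1 in R 4.3.3 was fitted to log2(FPKM + 1) over all 9 libraries with a mean-variance trend, with contrasts between the 3 groups and Benjamini-Hochberg adjustment over all genes, and a gene passed at an adjusted p under 0.05. SEs are moderated and borrow from genes of like level, and log2(FPKM + 1) understates changes of low genes. The fit was also run on simulated data with the spread of the COPD model libraries alone. Those data held no low libraries, so that run says nothing of how the fit handles the pair. The members and all gene lists were chosen with earlier results of these data known. Genes named in the text were chosen from Foxj1 and the 2 highest and the lowest tested of each structural group. Further choices were the 3 largest and 3 most negative changes of each comparison. Also used were the 3 highest and 3 lowest in control 1 and BMSC-treated 1 relative to the other 7 libraries, and the 2 highest of each further cilium list. Some genes that meet these rules are not named. Others are said to be chosen after their values were seen, given to show group sums, named as part of a counted set, or named for their zeros, overlaps or sequences.

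Same-numbered BMSC-treated and control libraries deviated together from their group means, with correlations over genes of 0.63, 0.19 and 0.50 for numbers 1 to 3. Both groups have a low library at number 1 and a mitochondrial share that falls from number 1 to 3. The correlations therefore cannot show that these libraries are true pairs, and the number was treated only as a possible pairing. The correlations were -0.02, 0.18 and -0.17 for COPD model and control, and 0.05, -0.06 and -0.10 for BMSC-treated and COPD model, which were not taken as paired. Alternatives were another pseudocount (0.1), no filter or a stricter one (6 of 9 libraries), no trend, only the groups compared, median-of-ratios scaling, FPKM rescaled over genes other than Scgb1a1 and the mitochondrially encoded genes, a replicate block, and fits without each library or without control 1 and BMSC-treated 1. Added after seeing the data were the rescaled fit without both libraries, the block over control and BMSC-treated libraries alone, and the looser repeat. Of the members, 57 had RefSeq coordinates on GRCm38.p6. Python 3.11.15 with pandas 2.3.3, numpy 2.4.6 and matplotlib 3.10.9 served for tables and plots.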

Additional observations from a re-analysis of the deposited data

How the results depend on the processing

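In every fit run, 0 members passed in each comparison, with a smallest member adjusted p by limma of 0.0524 for COPD model against control without control 3. The median member change kept its sign for BMSC-treated against COPD model, at -1.80 to -0.41 when 1 library was left out, while it ranged from 0.19 to 1.83 for COPD model against control and from -1.03 to 0.62 for BMSC-treated against control. Relative to all genes the median for COPD model against control was 0.48 and became -0.11 without control 1. A pseudocount of 0.1 gave medians of 1.78, -1.63 and 0.05 in the first, the second and the last comparison. Depth is unknown, so the reads behind members near 0 FPKM in the low libraries cannot be given.

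With the replicate block 0 members passed, and 17, 34 and 0 genes passed in the same order, against 9, 15 and 0 without it. The block over control and BMSC-treated libraries alone also gave 0. Blocking by number thus changed no member call. Each number occurs once in each group, so the block cannot move the fitted changes, and the medians stayed at 1.14, -1.22 and -0.06. The smallest adjusted p of a member by limma went from 0.514 to 0.126 in the first comparison. In the second it went from 0.375 to 0.0706. Median-of-ratios scaling gave medians of 0.58, -0.46 and 0.07.

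Single members reversed as follows, and the cause was not tested. For COPD model against control, Tekt5, Dnah2 and Cfap97 were at -0.33, -0.24 and -0.33 with median-of-ratios scaling, -0.29, -0.19 and -0.24 with rescaled FPKM, and -0.15, -0.51 and -0.34 with rescaling and the pair left out. Without the pair Dnah2 and Cfap97 were at -0.34 and -0.14, and leaving out 1 library gave -0.34 to 0.54 and -0.14 to 0.76. For BMSC-treated against COPD model, Cfap46 and Tekt5 were at 0.49 and 0.35 with median-of-ratios scaling and 0.39 and 0.28 with rescaled FPKM. With rescaling and the pair left out Cfap46 and Dnah2 were at 0.035 and 0.31, Dnah2 was at 0.12 without the pair, and it ranged from -0.70 to 0.12 without single libraries. For BMSC-treated against control, leaving out 1 library gave -1.45 to 0.26 for Cfap45, -1.37 to 0.51 for Rsph3a, -1.73 to 0.66 for Tekt1, -1.18 to 1.28 for Tekt2, -0.97 to 1.19 for Cfap100, -0.98 to 1.37 for Cfap126 and -1.38 to 1.41 for Foxj1. Tekt2, Cfap100, Cfap126 and Foxj1 were at -0.14, -0.04, -0.20 and -0.16 without the pair and at -0.11, -0.016, -0.18 and -0.14 with rescaling as well.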

Other observations

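Club cell markers, secretory genes of the airway, gave 1 passing gene where the cilium genes gave 0. The 12 club cell markers had a median log2 change of -1.78 between BMSC-treated and COPD model lungs and 1.29 between COPD model and control lungs, beside -1.22 and 1.14 for the cilium members, and the difference between the lists was not tested. Of the 12, 1 passed in each of these comparisons by limma with Benjamini-Hochberg adjustment, and it was Scgb1a1, with log2 changes of -3.29 ± 0.37 and 2.62 ± 0.37 (SE), beside 0.127% and 0.0765% of all genes passing. Without control 1 and BMSC-treated 1, 1 club marker passed between BMSC-treated and COPD model lungs and 0 passed between COPD model and control lungs. Cyp2f2, a cytochrome of club cells, had 291.4, 1658 and 1889.6 FPKM in BMSC-treated, 2919.8, 3115 and 3201 in COPD model and 284.5, 2320.4 and 3312 in control libraries, so control 3 lay above every COPD model library. The 4 goblet cell markers summed to 12.3, 42.9 and 321.7 FPKM in BMSC-treated, 147.3, 130.5 and 17.3 in COPD model and 0.571, 297.3 and 74.3 in control libraries, an order unlike that of the cilium genes, and their median log2 change was -0.75 between BMSC-treated and COPD model lungs, the same as over all genes. The 8 smooth muscle markers summed to 49.1, 428.8 and 372.0 FPKM in BMSC-treated, 1125, 411.3 and 565.8 in COPD model and 106.5, 82.1 and 546.3 in control libraries, so that control 2 was low for muscle but not for cilium genes. Cyp2f2 was chosen after its values were seen.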
